A study of Mus musculus with 3 samples.

Results

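Poly(A) sites were examined at 8 genes of fibroblast growth factor (FGF) and ERK signalling in mouse embryonic stem (ES) cells. The genes were the ligand Fgf4, the receptor Fgfr1, the adaptor Grb2, the exchange factor Sos1, the GTPase Nras, the MEK kinase Map2k1 and the feedback inhibitors Dusp6 and Spry4. All listed sites on the strand of the gene, from its start to 1 kb past its end in the GENCODE M21 annotation (mm10), were taken. These were 83 of 178115 listed sites, in 8 of 21669 genes with a site. Sos1 held 23 sites, Nras 16, Fgfr1 13, Map2k1 12, Grb2 11, Fgf4 6, and Dusp6 and Spry4 1 each. The cells were of the line F121-9, a hybrid of the Cast and 129 strains, and formed a single group of 3 libraries, which the labels number as biological replicates 1 to 3. Each library came from passage 14 and 500 ng of RNA, by the QuantSeq form of PAS-seq, in which a read marks the 3′ end of a polyadenylated transcript. No treatment, genotype change or culture medium is given in the labels, and the lists do not split reads by parental allele. With 1 group, sites were compared within genes and genes within libraries. The labels do not say whether these were separate cultures, so the spread between these libraries may be technical. The p-values of limma rest on this spread in the gene itself and in genes of like level.

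FGFs bind receptor tyrosine kinases at the cell surface, and the activated receptor recruits adaptors such as GRB2, which carries SOS1 to the membrane. SOS1 loads RAS proteins with GTP, RAS activates RAF kinases, RAF activates the MEK kinases, and MEK activates ERK. ERK induces its own inhibitors, the DUSP phosphatases and the Sprouty proteins. In mouse ES cells, FGF4 made by the cells themselves drives much of the ERK activity, and this activity moves cells away from the naive pluripotent state. A gene's level here was the sum of its exonic and downstream sites in RPM (reads scaled to the depth of the library). A transcript gives 1 read at its end, so levels were not divided by gene length.

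The ends of the transcripts described below are shown as the 30 bases up to and including the cleavage site, on the strand of the gene, in the GRCm38 reference. This reference is of neither parental strain. Capitals mark the poly(A) signal hexamer deposited for the site, the element that the cleavage machinery reads.
Fgf4, main site, chr7:144865214-144865243 (+): gagagatATTAAAatgacaaacgtgtctgc
Fgfr1, proximal site, chr8:25574524-25574553 (+): acaaagtgTATAAAtcttgagtatatattt
Fgfr1, middle site, chr8:25574761-25574790 (+): tcAATAAAaaattgctgctgcttcattttt
Fgfr1, distal site, chr8:25575619-25575648 (+): AATGAAtttagcacaaactcattttcttgg
Grb2, main site, chr11:115644047-115644076 (−): taactgtgAATAAAcgtacaatgagttctt
Sos1, main site, chr17:80394026-80394055 (−): aaattgaaaaatAATAAAgaaaaatacctt
Nras, proximal site, chr3:103064647-103064676 (+): ttcccaaAATATAattagtgttgctgattg
Nras, distal site, chr3:103067878-103067907 (+): aaaaAATAAAaaactggaagttctttgctt
Map2k1, proximal site, chr9:64185943-64185972 (−): gtcacaaatggATTAAAgcatcaatgtatc
Map2k1, distal site, chr9:64185769-64185798 (−): caagttaaAATAAAagggacaagagatttc
Dusp6, its site, chr10:99267455-99267484 (+): ttaaattattAATAAAtaactattttggct
Fgf4 ended at ATTAAA, the most common variant of the signal, while Grb2, Dusp6 and the distal sites of Nras and Map2k1 ended at the canonical AATAAA. The proximal sites of Nras and Map2k1 and both the proximal and the distal site of Fgfr1 carried variants. The middle site of Fgfr1 carried AATAAA. The 78 hexamers deposited for the 83 sites, several at some sites and none at others, were all found in the reference.

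The libraries held 10147672, 13513327 and 13040620 reads at listed sites in replicates 1, 2 and 3. The X, Y and mitochondrial chromosomes had 0 reads in replicate 3. X-linked genes were therefore taken from replicates 1 and 2. All 8 genes are autosomal, and each pair of neighbours in their order by level overlapped or did not overlap alike when reads were scaled to the autosomal total. Of 10 ES cell markers, 9 reached a mean of 10 RPM, the exception being Dppa5a at 0.314 RPM, and their sum was 3028 to 3335 RPM. The 6 primitive endoderm markers summed to 3.24 to 11.4 RPM and the 5 trophoblast markers to 1.89 to 4.33 RPM, with Gata3 at 0. The 5 mesoderm markers summed to 11.0 to 35.7 RPM and the 5 markers of the formative epiblast to 50.7 and 56.4 RPM in replicates 1 and 2, with no listed site for Fgf5. In replicate 3 the sum was 44.7 RPM without the X-linked Sox3. The 8 fibroblast markers summed to 833 to 979 RPM, of which Fn1 gave a mean of 805 RPM, while Postn had no site and Col3a1 lay at 0.0898 RPM. Thy1 read 81.3, 48.9 and 123 RPM in replicates 1, 2 and 3, Col1a1 0.0902, 0.606 and 6.11 RPM and Col1a2 0, 1.08 and 3.20 RPM, each highest in replicate 3. The part of other cells in the levels below was not tested, and in bulk RNA fewer cells of a type cannot be told apart from less RNA per cell.

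Fgf4, the ligand, was the most abundant of the 8 transcripts, and Spry4, a Sprouty feedback inhibitor, was at the edge of detection. Their mean levels spanned 161 RPM to 0.0449 RPM, with 6 of 8 genes at 10 RPM or more, where 52.2% of 14126 autosomal protein-coding genes reached that level. The median of the 8 genes was 31.1 RPM, against 11.4 RPM over all of those genes. The order by mean was Fgf4, Nras, Grb2, Map2k1, Fgfr1, Sos1, Dusp6 and Spry4. The ranges over libraries overlapped between Nras and Grb2, between Fgfr1 and Sos1 and between Sos1 and Dusp6, so these neighbours did not differ beyond the spread of each gene over libraries. Within libraries, Nras was above Grb2 in 1 of 3, Fgfr1 above Sos1 in 3 of 3 and Sos1 above Dusp6 in 2 of 3. They did not overlap between Fgf4 and Nras, Grb2 and Map2k1, Map2k1 and Fgfr1, or Dusp6 and Spry4.

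**Figure D1:**
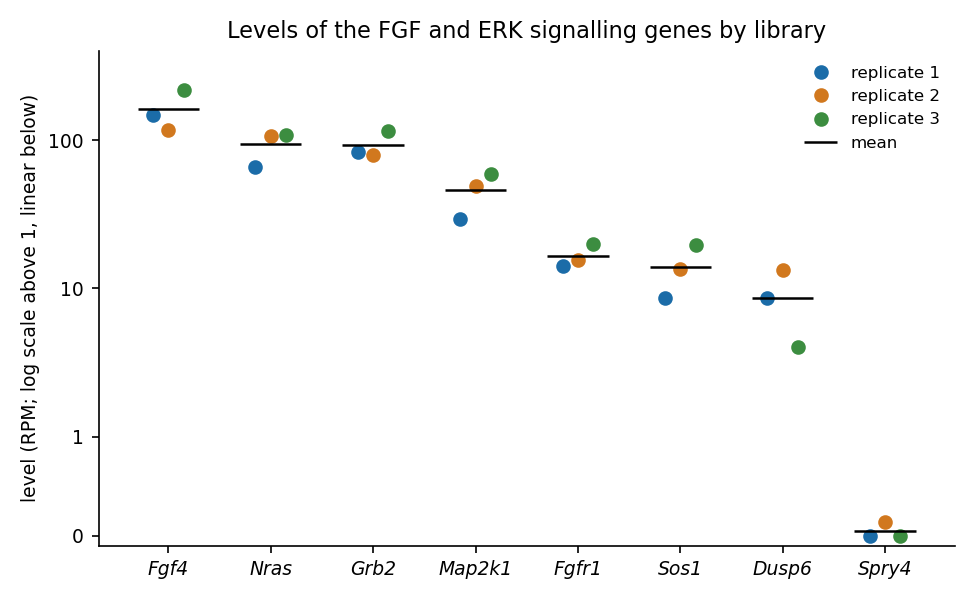
Level of each gene in RPM (log scale above 1, linear below) in replicates 1, 2 and 3 (points) with the mean of 3 libraries (line). Fgf4 lay highest at 117 to 217 RPM in all 3 libraries, and Spry4 had reads in replicate 2 only.

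Fgf4 (ENSMUSG00000050917.5, chr7:144847367-144865243, + strand) measured 148, 117 and 217 RPM in replicates 1, 2 and 3, from 1644, 1732 and 3055 reads. Replicate 3 was the highest, and the lowest library still lay above every library of Nras, the next gene. Its mean of 161 ± 51.4 RPM (SD, n = 3) ranked 932 of 14126 genes. The coefficient of variation (CV, SD over mean) was 32.0%. It was larger than that of 97.5% of the 1613 genes within 2-fold of its level, whose median was 11.9%. Scaled to autosomal reads, the libraries read 176, 139 and 234 RPM, with a CV of 26.3%.

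Nearly all Fgf4 transcripts ended at a single place. The main site, shown above, lay 2302 bases after the stop codon, exactly at the annotated gene end, and took 97.1%, 95.3% and 95.7% of the gene's reads. It carried ATTAAA and no AATAAA, so that 96.0% ± 0.935 of the reads of Fgf4 (SD, n = 3) came from ATTAAA and 0% from AATAAA. Over 11634 genes, ATTAAA preceded 15.0% ± 0.126 of reads and AATAAA 69.5% ± 0.240, and ATTAAA took over 90% of reads in 7.02% of genes. The remaining Fgf4 reads fell on 5 sites upstream in the same exon. The largest of these, 121 bases after the stop codon, held 20, 59 and 32 reads and had no deposited hexamer.

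Fgfr1, which encodes a receptor tyrosine kinase for FGF ligands, was in the middle of the order, well below Fgf4. Fgfr1 (ENSMUSG00000031565.18, chr8:25513654-25575718, + strand) measured 14.2, 15.5 and 20.0 RPM, a mean of 16.5 ± 3.05 RPM (SD, n = 3). Every library of Fgfr1 lay below every library of Map2k1. Its CV of 18.4% was below the median of 25.2% of genes within 2-fold of its level.

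Unlike Fgf4, Fgfr1 spread its ends over several sites, and the libraries did not share 1 leading site. In its last exon, 4 sites each held at least 5% of reads, at 632, 768, 869 and 1727 bases after the stop codon. The distal site took 13.5%, 46.3% and 61.8% of the gene's reads in replicates 1, 2 and 3. The middle site, at 869 bases and with AATAAA, took 33.5%, 23.9% and 16.6%. The proximal site, at 632 bases, took 21.8%, 0% and 2.12%. Replicate 1 thus used the middle and proximal sites most, and replicates 2 and 3 the distal site. The remaining site, at 768 bases, took 11.8% ± 6.85 and its hexamer, ATTAAA, was deposited at 59 bases upstream. Of Fgfr1 reads, 31.0% ± 12.8 came from sites with AATAAA, against a median of 79.7% over 11634 genes. The quartiles of these genes were 13.1% and 97.0%, so Fgfr1 lay between them. The hexamer of its most used site was AATGAA.

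Distal and proximal use was tested within each library in all 5121 genes with a pair of sites in the terminal exon, each with at least 5% of the exon's reads. The log2 ratio of distal to proximal RPM (0.05 RPM added to each) was tested with limma, and a call needed a Benjamini-Hochberg adjusted p under 0.05 and a 2-fold ratio. limma draws the spread of each gene toward that of genes of like level. An SE can therefore be smaller than the gene's own libraries would give. The distal site was used more in 1738 genes (33.9%) and the proximal site in 745 (14.5%), and the median log2 ratio was 1.34. Of the 8 genes, 4 could be tested, namely Fgfr1, Sos1, Nras and Map2k1. Of these, 3 of 4 were called distal and 0 of 4 proximal, and their median log2 ratio was 3.57. By edgeR on recovered reads, 2 of 4 were called distal and 0 of 4 proximal. The added 0.05 RPM pulls ratios of rarely used sites toward equal use. It is below the value of 1 read, 0.0673 to 0.0902 RPM in the 3 libraries. At a count of 0 the ratio thus depends on the added value and can be large.

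**Figure D2:**
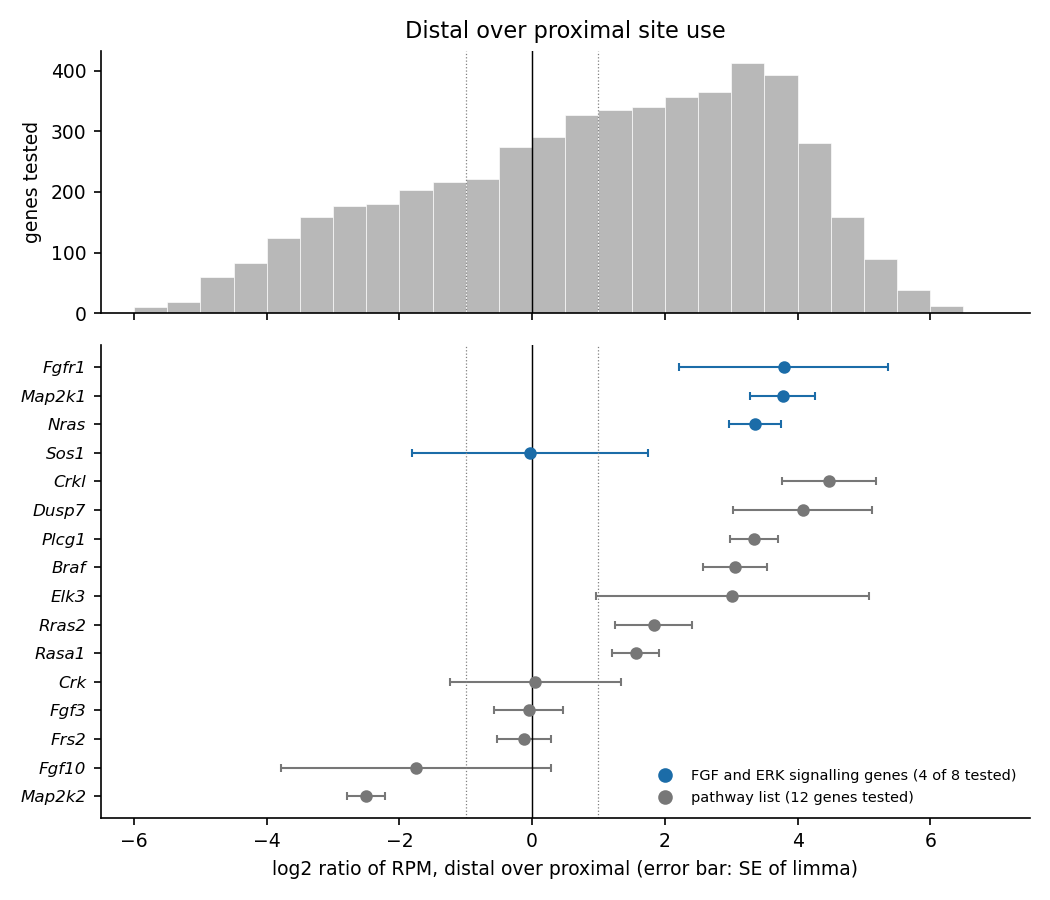
Top, number of genes per bin of 0.5 in the log2 ratio of distal over proximal RPM; bottom, the ratio with its SE in 4 FGF and ERK signalling genes and 12 genes of the pathway list, with dotted lines at a 2-fold ratio. Fgfr1, Map2k1 and Nras lie right of the median of 1.34, Sos1 lies at -0.03 and Map2k2 at -2.50.

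For Fgfr1, the proximal site held 37, 0 and 6 reads and the distal site, 1095 bases further on, 23, 120 and 175 reads. A count of 0 in replicate 2 allows up to 0.202 RPM, from counting error only. The log2 ratio was 3.79 with an SE of 1.57 (limma adjusted p = 0.045), but the distal site led in 2 of 3 libraries and the proximal site in replicate 1. The call was lost without replicate 2 (log2 ratio 2.02, limma adjusted p = 0.37) and without replicate 3 (3.34, limma adjusted p = 0.22). It was also lost by edgeR on recovered reads (4.19, edgeR adjusted p = 0.15) and with 1 prior spread for all genes (limma adjusted p = 0.17). The same ratio of 3.79 was not called among genes with at least 10 reads (limma adjusted p = 0.0805). Nor was it with a site minimum of 1% (limma adjusted p = 0.0634). A minimum of 10% changed the pair, which was not called (1.73, limma adjusted p = 0.13). The ratio was 2.44 with a pseudocount of 0.5 RPM and was called. It stayed at 3.79 and was called without the replicate block (limma adjusted p = 0.0466) and without A-rich sites (limma adjusted p = 0.0385). Without replicate 1 it was 6.03, also called, but the pair was still the one chosen from all 3 libraries. Its proximal site met the minimum of 5% through replicate 1, with 0% and 2.12% of the gene's reads in replicates 2 and 3. That call is therefore no separate check of the pair. Introns of Fgfr1 held 7.65%, 11.2% and 0.707% of its reads at 3 sites, none with reads in every library. Over all genes 24.3% had more than 5% of their reads in introns.

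Grb2, the adaptor that links the receptor to SOS1, was among the better expressed of the 8 genes and ended at a single site. Grb2 (ENSMUSG00000059923.13, chr11:115644045-115708597, − strand) measured 82.5, 79.5 and 115 RPM, a mean of 92.4 ± 19.8 RPM (SD, n = 3). Replicate 3 was the highest, and the other two were close to each other. Its main site, 1722 bases after the stop codon and 2 bases from the annotated end, took 97.7%, 97.0% and 96.5% of reads. The other 10 sites of Grb2 together held the few remaining reads, and the 2 sites in introns held 0.417% ± 0.582. AATAAA preceded 97.4% ± 0.741 of its reads.

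Sos1, the exchange factor that loads RAS with GTP, lay near the middle of all genes, above 53.7% of them, and had the most listed sites of the 8 genes. Sos1 (ENSMUSG00000024241.7, chr17:80393751-80480453, − strand) measured 8.57, 13.5 and 19.6 RPM, a mean of 13.9 ± 5.54 RPM (SD, n = 3). Replicate 1 was the lowest and replicate 3 the highest, as they were after scaling to autosomal reads (10.2, 16.1 and 21.2 RPM). Its most used site took 36.6%, 44.6% and 56.7% of reads and lay 4155 bases after the stop codon, 275 bases before the annotated end. The site at the annotated end took 2.68%, 15.8% and 4.61%.

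The terminal exon of Sos1 held 61.6%, 75.2% and 75.9% of its reads. Other exons held 20.2% ± 4.23 and introns 8.92% ± 6.54 (SD, n = 3). Among 11634 genes, 8.90% had more than 5% of reads in other exons. The largest of these exonic sites, at chr17:80420446, took 17.9%, 2.25% and 7.80% of reads, and 12 of the 20 bases downstream of it were A. Sequence rich in A can be primed by oligo(dT) inside a transcript, and its part in these reads was not tested. Sites with such sequence held 14.6% ± 6.79 of Sos1 reads and 5.92% ± 7.69 of Fgfr1 reads, but 0% of those of Nras and Dusp6. At 82 bases upstream of the stop codon, within the coding part of the last exon, a further site held 4, 19 and 20 reads and had no deposited hexamer. Of the 20 bases downstream of it 11 were A, just below the limit of 12 for an A-rich site. Priming inside the transcript was not tested there either.

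That coding site and the site at the annotated end, 4513 bases apart, formed the tested pair of Sos1. The proximal one held 4, 19 and 20 reads and the distal one 3, 35 and 13. The distal share was 42.9%, 64.8% and 39.4%, on both sides of equal use. The log2 ratio was -0.03 with an SE of 1.78 (limma adjusted p = 0.99), so no difference was detectable at this depth. This pair left out the most used site, which lies between both. With sites of at least 10% only, the pair became the most used site and the one at the end, with a log2 ratio of -2.86 (limma adjusted p = 0.045).

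Nras, a RAS GTPase, was as abundant as Grb2 and ended mostly at the end of its long last exon. Nras (ENSMUSG00000027852.14, chr3:103058285-103067914, + strand) measured 65.4, 107 and 109 RPM, a mean of 93.9 ± 24.7 RPM (SD, n = 3). Replicate 1 was the lowest, also after scaling to autosomal reads (77.7, 128 and 117 RPM). A short processed pseudogene, Nras-ps2, exists, and how reads with several matches were treated is not given in the sources used here. The stop codon lies in an earlier exon, so the sites below lie in untranslated sequence. The distal site, 1 base from an annotated transcript end, took 60.1%, 85.3% and 79.1% of reads. The proximal site, shown above with AATATA, took 18.1%, 6.26% and 3.27%, and a site with AATAAA between them took 9.79%, 5.20% and 8.62%.

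The distal site of Nras was used more than the proximal one in 3 of 3 libraries. The proximal site held 131, 100 and 50 reads and the distal site, 3231 bases further on, 436, 1362 and 1211. The distal share of the pair was 76.9%, 93.2% and 96.0%, or 88.7% ± 10.3 (SD, n = 3), lowest in replicate 1. The log2 ratio was 3.36 with an SE of 0.39 (limma adjusted p = 1.2e-08), above that of 78.7% of tested genes. This SE is smaller than the spread of Nras alone would give, so the p-value rests partly on other genes. In replicates 1, 2 and 3 the log2 ratio was 1.73, 3.76 and 4.58 (SD 1.47). It was 4.17 without replicate 1 and 2.74 without replicate 3, called in both cases. With 1 prior spread for all genes the same ratio had a limma adjusted p of 0.0503 and was not called. Downstream of the annotated end, 2 further sites held 1.37% ± 0.720 of reads.

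The stretch between both Nras sites was searched for the core of AU-rich elements and for sites of microRNAs, since RAS genes are known targets of let-7 in worms and human cells, and the miR-290 cluster is abundant in mouse ES cells. The seeds (bases 2 to 8) are in capitals in the mature sequences, which are from RefSeq in GRCm38.p6.
mmu-let-7a-5p: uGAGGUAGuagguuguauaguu
mmu-miR-294-3p: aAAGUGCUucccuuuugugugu
On the sense strand the stretch held 0 matches to CTACCTC, the complement of the let-7a seed, which 20.2% of 1204 windows of the same length before the distal sites of other genes held. It held 2 matches to AGCACTT, the complement of the miR-294 seed, which 35.5% of those windows held. TATTTAT was not found, against 51.5% of windows, and ATTTA was found 5 times, the median of the windows being 5. A match is a description of the letters, and overlapping matches were counted. The search for seed matches was chosen after seeing the data.

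Map2k1, which encodes the kinase MEK1 that phosphorylates ERK, had a dominant site and a lesser one just upstream. Map2k1 (ENSMUSG00000004936.8, chr9:64185770-64253631, − strand) measured 29.2, 49.1 and 59.2 RPM, a mean of 45.8 ± 15.2 RPM (SD, n = 3). Replicate 1 was the lowest, also after scaling to autosomal reads (34.7, 58.3 and 63.8 RPM). The distal site, 916 bases after the stop codon, took 92.0%, 92.3% and 83.2% of reads, and the proximal one, 742 bases after it, 7.72%, 2.60% and 12.7%. The pair lay 174 bases apart, against a median distance of 861 bases in the tested genes. Distal reads numbered 298, 674 and 694 and proximal reads 25, 19 and 106. The distal site was used more in 3 of 3 libraries, with a log2 ratio of 3.78 and an SE of 0.49 (limma adjusted p = 1e-07). This SE, too, is smaller than the spread of Map2k1 alone would give. In replicates 1, 2 and 3 the log2 ratio was 3.55, 5.09 and 2.70 (SD 1.21). It was 3.12 without replicate 2 and 6.20 with a pair of sites of at least 1%, called in both cases. With 1 prior spread for all genes the limma adjusted p was 0.038. The 2 sites differed in signal, AATAAA at the distal and ATTAAA at the proximal site.

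**Figure D3:**
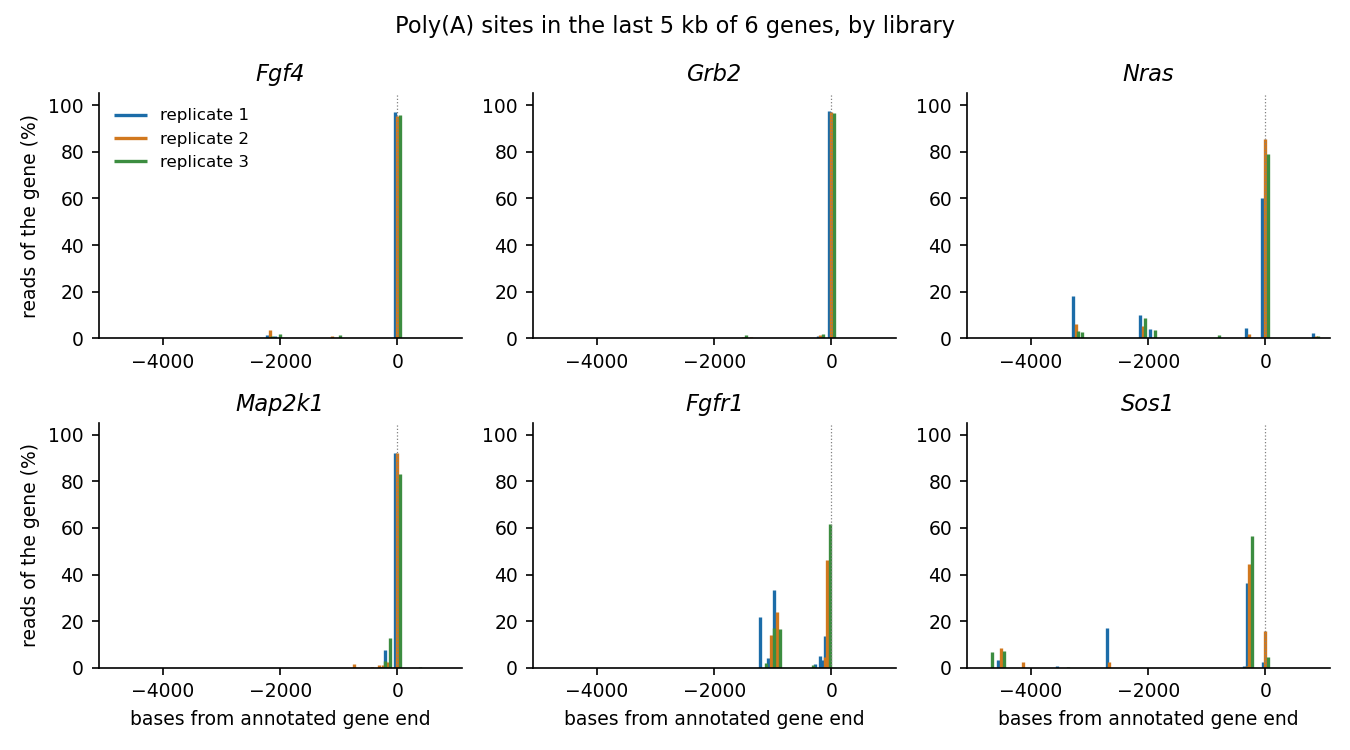
Share of the reads of 6 genes (percent) at each site against its distance in bases from the annotated gene end (0, dotted), with 1 bar per site and library, the bars of replicates 1 and 3 shifted by 45 bases for sight. Fgf4 and Grb2 show 1 tall bar near the end, Nras and Map2k1 a tall bar with lesser ones upstream, and Fgfr1 and Sos1 several bars that differ between libraries.

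The shares of sites differed between libraries by more than counting error in all 4 genes that could be tested, Fgfr1, Sos1, Nras and Map2k1. So they did in 91.9% of 4977 genes (chi-square test of reads by site and library, Benjamini-Hochberg adjusted p under 0.05), so this count is near the background. Per degree of freedom the chi-square was 53.7 for Nras, 31.3 for Fgfr1, 27.1 for Map2k1 and 8.04 for Sos1. The median of genes with a like number of reads was 15.6, 15.2, 14.8 and 15.3 in the same order. Nras and Fgfr1 thus lay in the upper range, above 93.6% and 87.3% of such genes, and Sos1 lay above 22.3%. Reads may not be independent molecules, so this test covers counting error only.

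Dusp6 and Spry4 are the feedback genes of the set. DUSP6 is a phosphatase that removes the activating phosphates of ERK, and SPRY4 blocks signalling upstream of ERK. Dusp6 (ENSMUSG00000019960.8, chr10:99263231-99267489, + strand) measured 8.57, 13.4 and 4.05 RPM, from 95, 199 and 57 reads, a mean of 8.67 ± 4.67 RPM (SD, n = 3). It was lowest in replicate 3, in which Fgf4, Fgfr1, Grb2, Sos1, Nras and Map2k1 were highest. After scaling to autosomal reads Dusp6 read 10.2, 15.9 and 4.37 RPM. Fgf4, Fgfr1, Grb2, Sos1 and Map2k1 were then still highest in replicate 3, and Nras was highest in replicate 2. Its CV of 53.9% was above that of 81.4% of genes within 2-fold of its level. All Dusp6 reads in all 3 libraries fell on 1 site, 1185 bases after the stop codon and 4 bases from an annotated end, with AATAAA.

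Spry4 (ENSMUSG00000024427.7, chr18:38586247-38601415, − strand) had 0, 2 and 0 reads in replicates 1, 2 and 3, or 0.135 RPM in replicate 2. The limit that a count of 0 allows was 0.271 RPM in replicate 1 and 0.213 RPM in replicate 3. These limits lie above the value of replicate 2, so no order between libraries can be read. Spry4 ranked 13721 of 14126 genes. Its 2 reads lay 15 bases from the annotated end, at a site with no AATAAA.

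Beyond the signal, the bases around the main site were searched on the sense strand in 7 genes, all but Spry4. TGTA, the core bound by the cleavage factor CFIm, lay in the 100 bases upstream of the main site in 5 of 7 genes. Of the most used sites of 10606 genes, 54.4% held it. GTGT lay in the 40 bases downstream in 5 of 7 genes, against 33.6%. TTTT lay there in 7 of 7 genes, against 40.3%. GTGT and TTTT stand for the GU-rich and U-rich sequence that often follows a cleavage site, and a match is no sign of use.

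Of the 83 sites, 56 lay in terminal exons, 18 in introns, 6 in other exons and 3 downstream of the gene. Reads in every library were found at 25 sites, and 45 sites had reads in 1 library only. Sites with reads in every library nevertheless held 99.4% ± 0.591 of Fgf4 reads, 98.6% ± 0.221 of Grb2 reads and 98.3% ± 2.05 of Map2k1 reads. For Nras this share was 95.9% ± 1.84. It was lower for Fgfr1, at 77.0% ± 23.1, and for Sos1, at 76.0% ± 9.87, against a median of 96.0% over 11634 genes.

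Other genes of the pathway were taken from a list of 54 genes, chosen with earlier results of these data known. Of these, 44 reached 1 RPM, 33 reached 10 RPM and 6 reached 100 RPM, and 4 had no listed site. Their median was 18.1 RPM. Of 14126 autosomal protein-coding genes with a listed site, 11477, 7367 and 1597 reached 1, 10 and 100 RPM, with a median of 11.4 RPM. Among the other ligands, Fgf3 was the highest at 18.4 ± 2.05 RPM, followed by Fgf17 at 6.97 ± 3.76 RPM (SD, n = 3 unless given), so that Fgf4 lay above every other ligand of the list in every library. Among the receptors, Fgfrl1, which lacks a kinase domain, stood at 48.2 ± 4.43 RPM, above Fgfr1, and Fgfr3 at 6.24 ± 3.57 RPM. Of the adaptors, Shc1 was at 109 ± 12.3 RPM and Plcg1, a phospholipase, at 67.6 ± 13.9 RPM.

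In the group of RAF, MEK and ERK kinases and scaffolds, 10 of 10 genes were at 10 RPM or more. Of 14126 autosomal protein-coding genes with a listed site, 52.2% reached that level. The ERK substrate kinase Rps6ka1 was at 124 ± 17.4 RPM. The RAS gene Hras was at 79.1 ± 10.8 RPM, below Nras by mean, with a range that overlapped its own. The feedback inhibitors differed widely. Spry2 was at 188 ± 64.5 RPM and the ERK phosphatase Dusp9 at 191 ± 7.68 RPM (SD, n = 2, X-linked), while their relatives Spry4 and Dusp6 were at 0.0449 and 8.67 RPM. Of the transcription factor targets, Etv5 was at 81.6 ± 9.78 RPM and Ier2 at 56.1 ± 12.8 RPM.

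**Figure D4:**
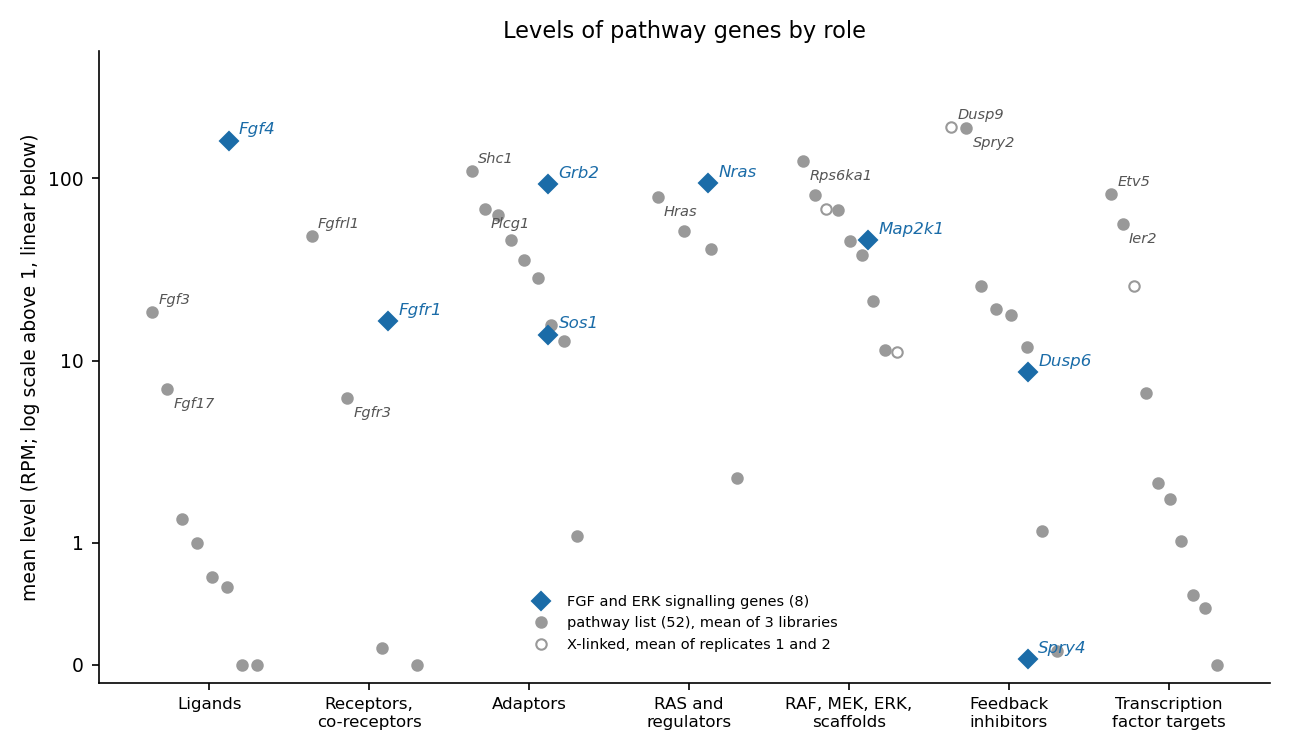
Mean level in RPM (log scale above 1, linear below) of the 8 FGF and ERK signalling genes (diamonds) and of 52 pathway genes (circles, open for X-linked genes over replicates 1 and 2), by role with high genes of each role named. Fgf4 at 161 RPM stands above the other ligands, and Spry4 at 0.0449 RPM below Spry2 at 188 RPM.

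In 14 genes of the list the use of distal and proximal sites could be tested, and 8 were called distal and 1 proximal. The median log2 ratio was 1.79. Over all 5121 genes tested, 33.9% were called distal and 14.5% proximal, with a median of 1.34. Among RAS genes and their regulators, Rras2 (log2 ratio 1.83, SE 0.58, limma adjusted p = 0.0093) and the RAS inactivator Rasa1 (1.56, SE 0.35, 0.00035) used the distal site more. Of the adaptors, so did Plcg1 (3.34, SE 0.36, 3.7e-09) and Crkl (4.47, SE 0.71, 3.4e-06). Of the kinases, so did Braf (3.06, SE 0.48, 2.7e-06), as did the ERK phosphatase Dusp7 (4.08, SE 1.05, 0.0017). Map2k2, which encodes MEK2, was the exception, with a distal share of 15.2% ± 3.42 (SD, n = 3) and a log2 ratio of -2.50 with an SE of 0.29 (limma adjusted p = 1.4e-08). Its relative Map2k1 had a distal share of 92.1% ± 5.26, and the difference between both genes was not tested.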

How the data were processed

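PAS-seq libraries of 1 group of 3 were analysed. Sites were made on mm10 with GENCODE M21, per the file headers in the notes deposited beside each list. Which aligner and site caller made them is not given in the sources used here. The authors deposited RPM per site and library, the fraction of libraries with a read, and the mean RPM over libraries, as read from the values. Whole reads were recovered from RPM: 100% of values were whole within 0.01 reads, on totals of 11085428, 14855484 and 14064461 reads, and the listed sites held 91.5%, 91.0% and 92.7% of these. The sources name no molecular identifiers, so limits from a count of 0 (3 reads) cover counting error only.

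Sites were assigned on their strand to terminal exons, other exons, introns or the 1000 bases downstream. The tandem test took genes with at least 50 reads and the outermost terminal exon sites with at least 5% of its reads. It used limma 3.58.1 in R 4.3.3 with the ratio taken within each library, and a prior spread that follows the mean level, a setting chosen after seeing simulated data and these data. As an alternative, edgeR 4.0.16 on recovered reads called 1369 genes distal and 590 proximal. The chi-square test needed 50 reads of the gene per library. A-rich sites had 12 or more A, or 6 in a row, among the next 20 bases. Scripts were tested on simulated data. The members, the lists and the naming rule were chosen with earlier results of these data known. That rule named all 8 genes, the top 2 genes of each role of the pathway list by mean, and each gene of the list called in the tandem test. Values of 2 genes of that list enter its counts and medians but are not reported here.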

Additional observations from a re-analysis of the deposited data

How the results depend on the processing

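Levels, ratios of the most to the second most used site and AATAAA shares moved by less than 1 SD in all 97 values recomputed. A mean of 3 libraries cannot move by 1 SD when 1 library is left out, so those values could not have failed this limit. For Fgfr1, the log2 ratio of the most to the second most used site changed sign without replicate 3, from 0.51 to -0.17. A site minimum of 10% changed the genes called distal from 1738 to 982, those of the 8 genes called distal from 3 to 0 (Nras and Map2k1 no longer had a pair), those called proximal from 0 to 1 (Sos1), and those with unequal shares between libraries from 4 to 1. Over all genes, those with unequal shares went from 4574 to 3251 at a minimum of 10%. A minimum of 1% gave 3448 distal genes. The site minimum also changes how many genes have a pair, so these counts are not shares of the same genes. With 1 prior spread for all genes, added after seeing the data, 993 genes were called distal, 401 proximal and 1 of the 8 genes (Map2k1) distal. Requiring 200 reads in every library left 2616 genes, 2 of them among the 8, with unequal shares. Fewer genes can be tested under this requirement, so the lower count is not a lower share. Without the replicate block, 1784 and 755 genes were called, with 3 of the 8 genes distal. For the distal and proximal calls with 1 replicate left out, pairs were kept as chosen from all 3 libraries. Leaving out 1 replicate gave 1199 to 1501 distal genes, 571 to 657 proximal genes and 3924 to 4426 genes with unequal shares. Among the 8 genes these were 2 to 3 distal, 3 to 4 with unequal shares and 6 to 7 at 10 RPM or more. For Sos1, a minimum of 1% changed the pair. Its proximal site became chr17:80398466, with 0, 0 and 1.35 RPM in replicates 1, 2 and 3, and the log2 ratio was 2.58. For the main pair the sign turned with a pseudocount of 0.5 RPM (0.03) and varied with 1 replicate left out (-0.48 to 0.25). Sos1 was called in none of these settings. What turned the sign of the main pair was not tested. Sos1, Fgfr1 and Dusp6 rest on 57 to 281 reads a library.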

Other observations

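Immediate early genes, which respond quickly to ERK, differed in level within the transcription factor targets of the pathway list. The genes given here were singled out after their values were seen. Ier2 read 42.5, 58.1 and 67.8 RPM in replicates 1, 2 and 3. Fos read 0.992, 4.98 and 0.427 RPM, a mean of 2.13 ± 2.48 RPM (SD, n = 3). Myc read 1.17, 0.404 and 0.142 RPM and Egr1 0.0902, 0.875 and 0.427 RPM. Etv4, a relative of Etv5, stood at 6.67 ± 1.56 RPM. Among the Sprouty genes and their kin, Spry1 lay at 0.112 ± 0.194 RPM, while Spred1 and Spred2 lay at 17.8 ± 2.73 and 25.5 ± 5.88 RPM.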
